A study of Mus musculus with 10 samples.

Results

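The CatSper channel and its ion transport partners were followed in mouse testes that lacked the RNA helicase MOV10. 10 genes, named with earlier results of these data known, were looked up in the deposited counts of reads per gene: the pore-forming subunits Catsper1, Catsper2, Catsper3 and Catsper4, the auxiliary subunits Catsperb, Catsperd, Catsperg1 and Catsperg2, the sodium/proton exchanger Slc9c1 and the potassium channel Kcnu1. All 10 were found among the 55421 genes listed for each library. RNA-seq came from testes at postnatal day 21 (P21) of wild type (Mov10+/+) mice, replicates 1, 2 and 3, and of Mov10-/- mice, replicates 2, 3 and 4, with 1 pair of testes per library. In Mov10-/- mice exons 8 to 14 of Mov10 had been removed in the whole animal through Actb-Cre, on a mixed genetic background. 4 more libraries, replicates 1, 2, 3 and 5, held RNA cross-linked to MOV10 (CLIP-seq) from P21 testes. The sources do not say whether any animals were littermates, so p-values measure the spread between these libraries.

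CatSper is a calcium channel found only in the tail of sperm. Each of its 4 pore subunits forms a part of one pore, and a crown of auxiliary proteins sits on it; loss of the channel leaves sperm unable to hyperactivate, the vigorous beating that precedes fertilization. The channel opens at alkaline internal pH, which the sperm exchanger SLC9C1 helps to set, and KCNU1 (also called SLO3) is the potassium channel that makes the sperm membrane potential more negative. These proteins work in mature sperm, but their mRNAs are made earlier, in spermatocytes and in spermatids, the haploid cells that follow meiosis. At P21 the first wave of spermatogenesis has only recently produced round spermatids.

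Depth was similar in 5 of the 6 RNA-seq libraries. Reads counted on genes ranged from 7600909 to 9230540 in wild type and from 5083407 to 8027805 in Mov10-/-, where replicate 3 was the lowest and had 57.2% of its reads not aligned, against 26.5% to 35.9% in the other libraries. Values are given as CPM (read counts scaled to one common library total, with TMM factors), and the members had between 17 and 1763 reads in each library. Mov10 itself, the check of the labels, stood at 114, 96.8 and 120 CPM in wild type and at 29.2, 26.7 and 26.8 CPM in Mov10-/-. Its log2 fold change (Mov10-/- minus wild type) was -2.0 with a standard error (SE) of 0.12 (edgeR quasi-likelihood test, Benjamini-Hochberg adjusted p = 0.00552). Whether the remaining reads lay in the exons that were kept cannot be seen, since the files do not show positions. This call was lost without Mov10-/- replicate 3 (adjusted p = 0.107) and without Mov10-/- replicate 4 (adjusted p = 0.143) in the same edgeR test.

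Catsper1, Catsper3, Catsper4 and Kcnu1 had lower mean levels in Mov10-/- testes, by log2 fold changes of -1.90 to -2.90. Those of Catsper2, Catsperd, Catsperg1 and Catsperg2 were -0.27 to -0.09, with 95% intervals that held 0. Catsperb and Slc9c1 lay between them, at -0.43 and -0.58. None of the 10 was called, that is, none had more than a 2-fold difference together with an adjusted p below 0.05 (edgeR's quasi-likelihood test, Benjamini-Hochberg over 20240 genes), and the background of calls was 0.00494% of genes, which is Mov10 alone. Among the members, 6 had an unadjusted p under 0.05, all of them lower in Mov10-/-, against 11.9% of all genes tested that were lower at that p and 5.58% that were higher. The median log2 fold change was -0.51 over the 10 members and 0.03 over all genes tested. These are whole testes, in which fewer cells of a type and less RNA per cell cannot be told apart.

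The genes lie apart in the genome (mm10). Catsper1 is at chr19:5335741-5344280 (plus strand), Catsper2 at chr2:121392631-121413792 (minus strand), Catsper3 at chr13:55784568-55808998 (plus strand) and Catsper4 at chr4:134211970-134227383 (minus strand). Catsperb is at chr12:101404653-101626009 and Catsperd at chr17:56628143-56664456, both on the plus strand. Catsperg1 (chr7:29181321-29214035) and Catsperg2 (chr7:29697219-29727032) are neighbouring copies on the minus strand. Slc9c1 is at chr16:45535309-45607001 and Kcnu1 at chr8:25849623-25937939, both on the plus strand. All are protein-coding and have 8 to 31 exons once their transcripts are merged. The exons of Catsper2 share 18 bases with Pdia3, which lies on the opposite strand, and the strand setting of the counting is not given in the sources used here.

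Sequence upstream of the start sites was available in the RefSeq promoter table (GRCm38.p6) for 7 of the 10 members: Catsper2, Catsper3, Catsper4, Catsperb, Catsperd, Catsperg1 and Slc9c1. The 250 bases before the start are printed for 2 pore genes with log2 fold changes under -1 (Catsper3 and Catsper4). They are also printed for 2 members whose 95% intervals held 0 (Catsper2, and Catsperg1 at the first of its start sites). Capitals mark the searched motifs that were found.

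Catsper3, chr13:55784329-55784578, plus strand: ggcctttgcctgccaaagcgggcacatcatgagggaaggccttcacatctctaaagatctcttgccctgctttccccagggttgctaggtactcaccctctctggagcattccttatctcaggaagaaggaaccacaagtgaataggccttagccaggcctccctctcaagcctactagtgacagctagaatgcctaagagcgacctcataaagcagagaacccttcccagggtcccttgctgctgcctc

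Catsper4, chr4:134227384-134227633, minus strand: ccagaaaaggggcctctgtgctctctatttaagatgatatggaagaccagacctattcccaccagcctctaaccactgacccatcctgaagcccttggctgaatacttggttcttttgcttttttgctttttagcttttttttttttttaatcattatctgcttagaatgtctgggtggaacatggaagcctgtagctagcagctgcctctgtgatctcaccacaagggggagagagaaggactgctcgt

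Catsper2, chr2:121413793-121414042, minus strand: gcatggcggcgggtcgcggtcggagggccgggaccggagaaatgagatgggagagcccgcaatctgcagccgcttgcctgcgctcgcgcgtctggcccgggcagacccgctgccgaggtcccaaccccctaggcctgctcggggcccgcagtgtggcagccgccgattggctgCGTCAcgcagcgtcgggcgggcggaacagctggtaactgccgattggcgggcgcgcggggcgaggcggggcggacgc

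Catsperg1, chr7:29214034-29214283, minus strand: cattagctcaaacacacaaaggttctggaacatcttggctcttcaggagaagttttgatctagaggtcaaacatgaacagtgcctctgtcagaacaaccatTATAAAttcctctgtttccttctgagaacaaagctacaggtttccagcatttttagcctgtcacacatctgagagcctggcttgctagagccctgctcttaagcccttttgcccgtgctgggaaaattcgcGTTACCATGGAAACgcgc

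The motifs, read on both strands, were those of factors known from germ cells. They were the full cyclic AMP response element TGACGTCA (bound by CREM), its shorter form TGACG, which lies within the full one, the X-box part GTTGCC (bound by RFX factors), the MYB motif CAACTG or CAACGG, and TATAAA. The full cyclic AMP element was in 0 of the 7 members and in 1.55% of 32851 promoters. The shorter form was in 2 of the 7, Catsper2, where it began 77 bases before the start, and Catsperd, against 17.8% of all promoters. In Catsperd it was in the window of the first start site (chr17:56626797-56627046) and not in that of the second (chr17:56627893-56628142), which adjoins the annotated gene start. GTTGCC was in 0 of the 7 (10.4% of all promoters), the MYB motif in 1, Catsperb (14.8%), and TATAAA in 1, Catsperg1, beginning 149 bases before the start (12.4%). The capitals that begin 18 bases before the start of Catsperg1 match the X-box palindrome of the RFX factors, which was searched only after these letters had been seen, and 0.374% of all promoters hold it. None of the searched motifs was in Catsper3, Catsper4 or Slc9c1, which says only that these letters are not in this window. The windows also differed in base composition. Catsper2 had 74.8% G and C with 35 CG pairs and Catsperd 66.8% with 25 at the first of its start sites and 52.8% with 11 at the second. Catsper3 had 54.0% with 2, Catsper4 45.2% with 1, Catsperb 38.0% with 1, Slc9c1 35.6% with 3 and Catsperg1 46.0% with 5 at its first start site and 58.4% with 7 at its second, where the median promoter had 52.4% with 6.

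The pore subunits differed in the size of their fold changes, and none of the 4 was called. Catsper1, which gives the channel its name, was at 41.8, 114.5 and 24.8 CPM in wild type replicates 1, 2 and 3 and at 5.21, 19.7 and 8.02 CPM in Mov10-/- replicates 2, 3 and 4. No Mov10-/- library reached the lowest wild type library, but the highest wild type library was 4.61 times the lowest. The log2 fold change of Catsper1 was -2.50 (SE 0.67, 95% interval -4.04 to -0.95, edgeR quasi-likelihood adjusted p = 0.153). Catsper3 was at 18.2, 57.8 and 9.88 CPM in wild type and at 2.11, 6.58 and 3.09 CPM in Mov10-/-, again without overlap. It had the lowest counts of any member, 17, 32 and 25 reads in the Mov10-/- libraries, and the most negative log2 fold change, -2.90 (SE 0.72, 95% interval -4.58 to -1.23, edgeR quasi-likelihood adjusted p = 0.150).

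Catsper4 stood at 29.4, 90.7 and 19.6 CPM in wild type and at 3.97, 20.6 and 5.80 CPM in Mov10-/-. Here the groups overlapped, because Mov10-/- replicate 3 lay just above wild type replicate 3. The log2 fold change was -2.25 (SE 0.75, 95% interval -4.00 to -0.50, edgeR quasi-likelihood adjusted p = 0.198). Catsper2, the remaining pore subunit, was at 123, 181 and 134 CPM in wild type and at 89.6, 151 and 132 CPM in Mov10-/-, and the groups overlapped. Its log2 fold change was -0.24, and the 95% interval of -0.74 to 0.26 holds both no difference and a decrease of about 0.74 on the log2 scale (edgeR quasi-likelihood adjusted p = 0.596).

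**Figure D1:**
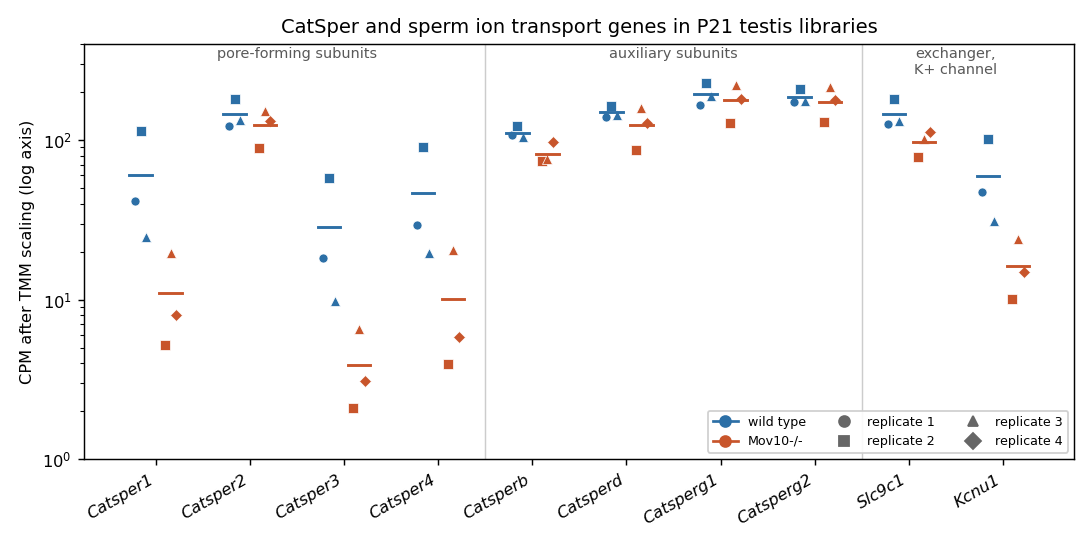
Level of each member gene in CPM (log axis) in the 3 wild type and 3 Mov10-/- libraries, with 1 point per library, its shape giving the replicate number, and a bar at the group mean. Catsper1, Catsper3, Catsper4 and Kcnu1 spread widely within wild type and reach the lowest values in Mov10-/-, while the other 6 genes stay between 74.1 and 227 CPM in every library.

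The auxiliary subunits, membrane proteins whose outer parts form the crown over the pore, differed less between the genotypes. Catsperb was at 107, 123 and 104 CPM in wild type and at 74.1, 75.9 and 97.3 CPM in Mov10-/-, again without overlap between the groups. Its wild type values spread by only 1.18 times, and the log2 fold change was -0.43 (SE 0.14, 95% interval -0.75 to -0.12, edgeR quasi-likelihood adjusted p = 0.179). Of the 50-base words in its transcripts, 9.27% also occur in Gm18795. Reads that did not align uniquely stayed out, so the level of Catsperb may be too low in both genotypes. Catsperd was at 139, 164 and 144 CPM in wild type and at 86.9, 159 and 128 CPM in Mov10-/-. The groups overlapped through Mov10-/- replicate 3, and the log2 fold change was -0.27 (95% interval -0.73 to 0.20, edgeR quasi-likelihood adjusted p = 0.530).

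Catsperg1 and Catsperg2 encode closely related forms of the gamma subunit. They share 43.0% and 44.1% of their 50-base words with each other, and reads in those stretches cannot be given to one gene with certainty. Catsperg1 was at 166, 227 and 189 CPM in wild type and at 128, 223 and 182 CPM in Mov10-/-. Catsperg2 was at 172, 210 and 175 CPM in wild type and at 129, 215 and 179 CPM in Mov10-/-. Both pairs of groups overlapped, and log2 fold changes of -0.13 (95% interval -0.60 to 0.34) and -0.09 (95% interval -0.52 to 0.33) were smaller than their intervals (edgeR quasi-likelihood adjusted p = 0.769 and 0.818). Their direction turned to 0.0596 and 0.0864 without Mov10-/- replicate 2. The ratio of Catsperg2 to Catsperg1 reads stayed between 0.922 and 1.04 in all 6 libraries.

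Kcnu1 and Slc9c1 differed from each other in the size and spread of their values. Kcnu1 was at 47.1, 101.5 and 31.2 CPM in wild type and at 10.1, 23.9 and 14.9 CPM in Mov10-/-, without overlap, and its wild type libraries spread by 3.26 times. The log2 fold change of Kcnu1 was -1.90 (SE 0.48, 95% interval -3.00 to -0.79, edgeR quasi-likelihood adjusted p = 0.150). Slc9c1 was at 126, 181 and 132 CPM in wild type and at 78.9, 102 and 112 CPM in Mov10-/-, also without overlap. Its log2 fold change was -0.58 (SE 0.18, 95% interval -0.998 to -0.16, edgeR quasi-likelihood adjusted p = 0.179).

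In all, 5 of the 10 members (Catsper1, Catsper3, Catsperb, Slc9c1 and Kcnu1) had all Mov10-/- libraries below the lowest wild type library, and 0 had the reverse. Of all genes tested, 14.1% were below in that way and 11.9% were above. A log2 fold change under -1 was fitted for 4 members (Catsper1, Catsper3, Catsper4 and Kcnu1) and for 9.78% of all genes tested, while a value above 1 was fitted for 0 members and 1.81% of genes. Wild type replicate 2 was the highest wild type library for all 10 members, and Mov10-/- replicate 2 was the lowest library for all 10. The rest of the order was not shared. Mov10-/- replicate 3 stood above wild type replicate 2 for Catsperg2 (215 against 210 CPM). For Catsperb and Slc9c1, unlike the other members, Mov10-/- replicate 4 was above Mov10-/- replicate 3. For the 4 genes with the most negative fold changes, wild type replicate 2 also set much of the size. Without it the log2 fold changes were -1.64 for Catsper1, -1.88 for Catsper3, -1.33 for Catsper4 and -1.28 for Kcnu1. Without Mov10-/- replicate 3 they were -3.18 for Catsper1, -3.45 for Catsper3, -3.24 for Catsper4 and -2.26 for Kcnu1.

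**Figure D2:**
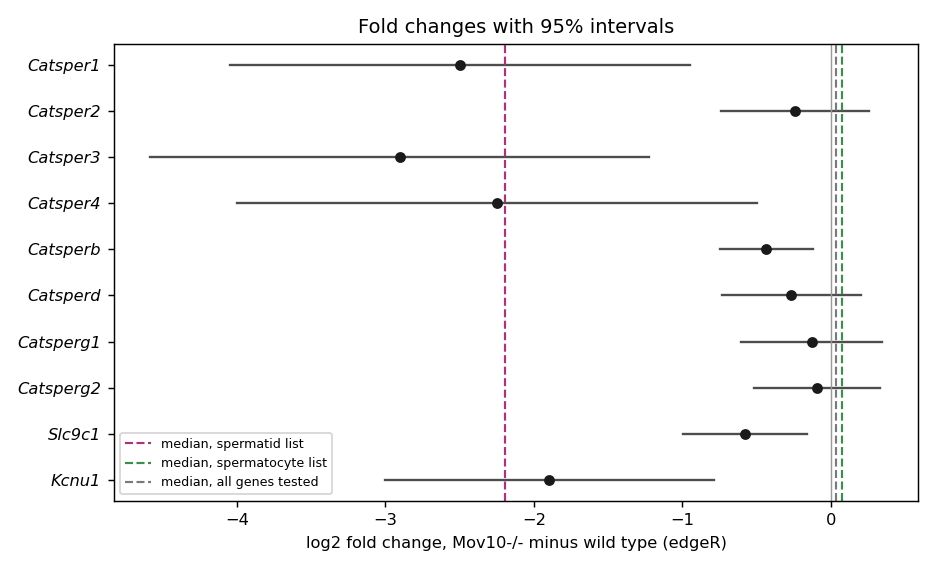
Fitted log2 fold change (Mov10-/- minus wild type) of each member with its 95% interval from edgeR, and dashed lines at the median of a spermatid marker list (-2.20), of a spermatocyte marker list (0.08) and of all genes tested (0.03). The intervals of Catsper2, Catsperd, Catsperg1 and Catsperg2 cross 0 and those of the other 6 do not.

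The call depended on the test. DESeq2 called 3 of the 10 members, Catsper1 (adjusted p = 0.0460), Catsper3 (adjusted p = 0.00130) and Kcnu1 (adjusted p = 0.00247), where it called 4.88% of all genes as lower. The edgeR exact test called the same 3, where it called 5.09% of all genes, and the edgeR likelihood ratio test called these and Catsper4 (adjusted p = 0.0470), where it called 5.45%. The fitted fold changes of the members moved little between these tests. limma voom called 0 of the members, where it called 0.00494% of all genes as lower. In that test 6 members had an unadjusted p under 0.05, and the share of all genes at that p was not determined.

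The ratio between 2 members within a library does not depend on its depth or scaling. Reads of Catsper1 per read of Catsper2 were 0.340, 0.633 and 0.185 in wild type and 0.0588, 0.131 and 0.0615 in Mov10-/-. The Mov10-/- ratios were all below the wild type ratios, with a difference of -2.13 on the log2 scale. The ratio of Catsper3 to Catsper2 differed by -2.37 and that of Catsper4 to Catsper2 by -2.0, both without overlap between the groups. For each of these 3 ratios an exact two-sided permutation test gave p = 0.1, also after Benjamini-Hochberg adjustment over the 3. That is the smallest p that 3 libraries against 3 allow, so the design cannot reach 0.05.

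A further 6 ratios were chosen after the values had been seen. Kcnu1 per Catsper2 was 0.383, 0.561 and 0.232 in wild type and 0.113, 0.158 and 0.114 in Mov10-/-, a log2 difference of -1.54 without overlap (exact permutation p = 0.1, adjusted over the 6 to 0.3). Slc9c1 per Catsper2 held at 1.02, 0.998 and 0.979 in wild type and was 0.881, 0.673 and 0.853 in Mov10-/-, a log2 difference of -0.33 without overlap (exact permutation p = 0.1, adjusted over the 6 to 0.3). The remaining ratios include those among the genes with log2 fold changes under -1. Catsper3 per Catsper1 ranged from 0.3996 to 0.505 in wild type and from 0.337 to 0.412 in Mov10-/-, with a log2 difference of -0.24 (exact permutation p = 0.2, adjusted over the 6 to 0.3). The log2 ratio of Catsper4 to Catsper1 differed by 0.13 and that of Kcnu1 to Catsper1 by 0.59, with overlapping groups in both (exact permutation p = 0.8 and 0.2, adjusted over the 6 to 0.8 and 0.3).

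**Figure D3:**
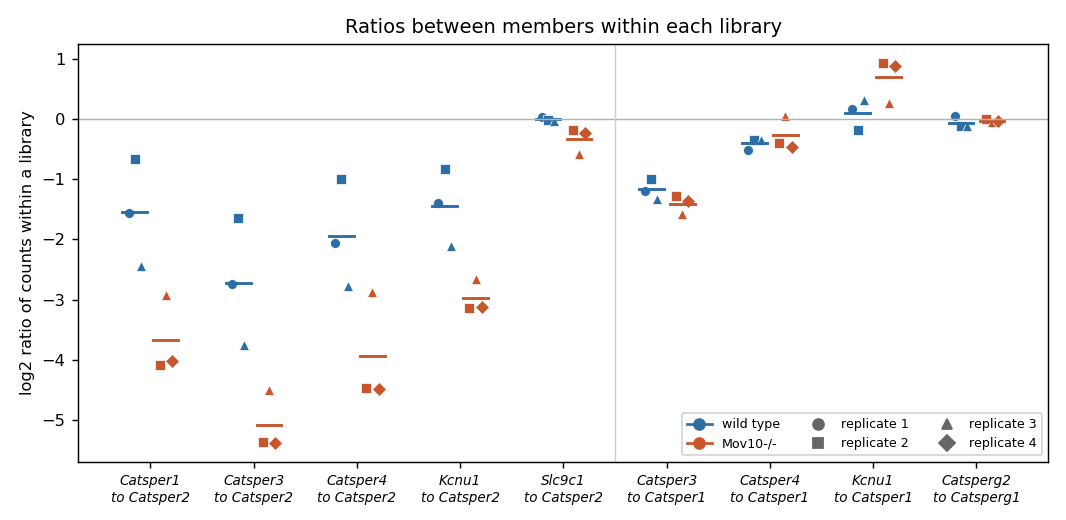
Log2 ratio of the read counts of 2 members within each library, with 1 point per library and a bar at the group mean. The ratios of Catsper1, Catsper3, Catsper4 and Kcnu1 to Catsper2 lie lower in all 3 Mov10-/- libraries than in any wild type library, while those of Catsper3, Catsper4 and Kcnu1 to Catsper1 overlap.

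Levels can be set between genes only per length of exon, as CPM divided by exon length in kilobases (RPKM). In wild type the mean RPKM fell in the order Catsperd (41.6), Catsper2 (39.6), Slc9c1 (36.0), Catsper1 (27.6), Catsperg1 (27.5), Catsperg2 (26.4), Catsper4 (22.2), Catsper3 (21.1), Catsperb (20.2) and Kcnu1 (16.03). No neighbouring pair in this order was apart beyond the spread of the 3 libraries. Reads that did not align uniquely stayed out, while Catsperg1 and Catsperg2 share 43.0% and 44.1% of their 50-base words. Their RPKM, taken over the full exon length, may therefore be too low in both genotypes. In Mov10-/- the mean RPKM was 34.7 for Catsperd, 33.6 for Catsper2, 25.2 for Catsperg1, 24.8 for Catsperg2, 24.1 for Slc9c1 and 14.9 for Catsperb. The 4 others followed well below these, at 5.02 for Catsper1, 4.81 for Catsper4, 4.36 for Kcnu1 and 2.88 for Catsper3. With the length of the longest transcript in place of all exons merged, Catsper2 came first and Catsper1 the 7th in wild type, so the order rests on the transcript models. It also rests on single libraries. Without wild type replicate 2 the wild type means were 15.2 RPKM for Catsper1, 11.7 for Catsper4, 10.5 for Kcnu1 and 10.3 for Catsper3, all below Catsperb at 19.1. Without Mov10-/- replicate 3 the Mov10-/- means were 3.34 RPKM for Kcnu1, 3.02 for Catsper1, 2.33 for Catsper4 and 1.91 for Catsper3.

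The make-up of the pore transcripts followed from these levels. Catsper2 made up 41.7%, 26.2% and 56.6% of the summed RPKM of the 4 pore genes in wild type and 80.6%, 63.4% and 80.4% in Mov10-/-. Catsper1 made up 23.9%, 28.0% and 17.6% in wild type and 7.92%, 13.97% and 8.28% in Mov10-/-. The mean share of Catsper3 was 16.9% ± 5.71 (SD, n = 3) in wild type and 5.92% ± 1.35 (SD, n = 3) in Mov10-/-. For Catsper4 it was 18.4% ± 4.37 (SD, n = 3) in wild type and 9.22% ± 5.13 (SD, n = 3) in Mov10-/-, with overlap, since Mov10-/- replicate 3 had 15.2% and wild type replicate 3 had 14.5%. The protein makes a pore with each subunit once, but no protein was measured here.

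**Figure D4:**
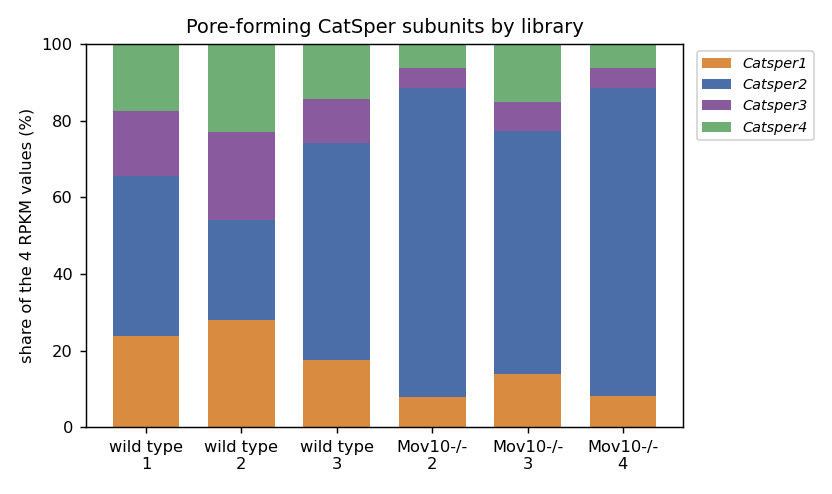
Share (%) of each pore-forming subunit in the summed RPKM of Catsper1, Catsper2, Catsper3 and Catsper4, with 1 bar per library. Catsper2 takes 26.2% to 56.6% in the wild type libraries and 63.4% to 80.6% in the Mov10-/- libraries.

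The other genes of the CatSper complex had log2 fold changes from -2.88 to -0.04, beside -2.90 to -0.09 in the members. Of 10 such genes, 9 were tested and 0 were called by edgeR's quasi-likelihood test. An unadjusted p under 0.05 was reached by 5, all of them lower, and the same number had all Mov10-/- libraries below the lowest wild type library, beside 11.9% and 14.1% of all genes tested. Their median log2 fold change was -0.48. Efcab9, a calcium-binding partner of the channel, was at 23.6, 36.0 and 13.4 CPM in wild type and at 4.59, 9.87 and 6.54 CPM in Mov10-/- (log2 fold change -1.81, SE 0.43). Its partner Catsperz was at 25.6, 33.4 and 25.8 CPM in wild type and at 20.1, 37.4 and 25.2 CPM in Mov10-/- (log2 fold change -0.04, SE 0.26). EFCAB9 and CATSPERZ bind each other as proteins, but only Efcab9 had non-overlapping groups, and the difference between the pair was not tested.

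Tmem249, a membrane protein of the complex, had CPM of 12.7, 46.3 and 8.81 in wild type and 0.993, 6.99 and 1.73 in Mov10-/- (log2 fold change -2.88, SE 0.87). Tmem262, another membrane component, had 5.77, 17.3 and 3.01 CPM in wild type and 0.869, 2.67 and 1.23 CPM in Mov10-/- (log2 fold change -2.49, SE 0.73). Both followed the order of libraries of Catsper1 and Catsper3. C2cd6, which is needed to bring the channel into the tail, and the transporter-like Slco6c1 had log2 fold changes of -0.53 and -0.48 with groups that did not overlap. Those of Trim69, Catspere1 and Catspere2 were -0.32, -0.22 and -0.18, with overlapping groups. Catspere1 and Catspere2 share 25.1% and 15.5% of their 50-base words with other genes, mostly with each other, and C2cd6b had no reads in any library.

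Of 17 genes for ion and pH transport or cyclic AMP in sperm, 14 were tested and 0 were called. Of the 14, 6 had an unadjusted p under 0.05, all of them lower, beside 11.9% of all genes tested. The median log2 fold change of the 14 was -0.34. Lrrc52, the auxiliary subunit of the KCNU1 channel, was at 6.01, 32.7 and 3.54 CPM in wild type and at 0.248, 1.85 and 0.247 CPM in Mov10-/- (log2 fold change -4.33, SE 1.12, edgeR quasi-likelihood adjusted p = 0.150). The Mov10-/- values of Lrrc52 rest on 2, 9 and 2 reads, so its fold change is imprecise. Atp1a4, the sodium pump subunit of sperm, was at 64.2, 189.7 and 21.6 CPM in wild type and at 3.97, 17.1 and 5.68 CPM in Mov10-/- (log2 fold change -3.44, SE 0.85). In both genes the groups did not overlap. Slc36a3, a solute carrier, had a log2 fold change of -3.13 that came from 1 library, with 36.7 CPM in wild type replicate 2 and 0.988 to 2.94 CPM in the other 5.

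Of 10 genes for calcium and cyclic AMP signalling in the tail, all were tested and 0 were called. Of the 10, 4 had an unadjusted p under 0.05, all lower, beside 11.9% of all genes tested. The median log2 fold change of the 10 was -0.24. Akap4, the main protein of the fibrous sheath of the tail, was at 81.8, 191.7 and 46.9 CPM in wild type and at 9.55, 33.1 and 16.2 CPM in Mov10-/- (log2 fold change -2.48, SE 0.60). Cabyr, a calcium-binding protein of the same sheath, and Akap3, a second anchoring protein there, had log2 fold changes of -1.98 and -1.81. None of the 3 had overlapping groups. Over the 3 lists together, 15 of the 33 genes tested had an unadjusted p under 0.05 and were lower, 13 had all Mov10-/- libraries below the lowest wild type library, and 0 had the reverse, beside 11.9%, 14.1% and 11.9% of all genes tested. Of these 33 genes DESeq2 called 9, where it called 4.88% of all genes as lower.

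Among the cell type markers, those of spermatids were lower in Mov10-/- as the members were. In a list of 23 spermatid genes, 21 were tested, with a median log2 fold change of -2.20. 19 of them had an unadjusted p under 0.05, all lower, beside 11.9% of all genes tested that were lower at that p. By edgeR's quasi-likelihood test 0 were called. Their summed level was 574 to 1807 CPM in wild type and 217 to 512 CPM in Mov10-/-, and Tnp2, a transition protein that packs spermatid DNA, had no read in Mov10-/- replicate 2. The mean centred log2(CPM + 0.5) of the spermatid list was 0.75, 2.27 and 0.05 in wild type replicates 1, 2 and 3 and -1.67, -0.18 and -1.22 in Mov10-/- replicates 2, 3 and 4. That of the 10 members was 0.34, 1.14 and 0.10 in wild type and -1.04, -0.01 and -0.53 in Mov10-/-. Both scores put the 6 libraries in one order, with wild type replicate 2 at the top and Mov10-/- replicate 2 at the bottom. The part of the spermatid list in the members' values was not tested.

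The other lists had medians smaller in size than the spermatid list, and towards higher values in Mov10-/-. Of 15 spermatocyte genes 0 had an unadjusted p under 0.05 and the median log2 fold change was 0.08. The median was 0.24 for spermatogonia, 0.21 for Leydig cells, 0.32 for macrophages and 0.33 for peritubular and endothelial cells. For Sertoli cells it was 0.35, and the 9 genes tested ran from 0.27 to 0.46. Of these, 5 had an unadjusted p under 0.05 and were higher, beside 5.58% of all genes tested. The defining Leydig, macrophage and Sertoli genes were all read in every library, apart from Rhox5 of the Sertoli list, which had no read in 5 of the 6. Insl3 of the Leydig list had only 1 to 6 reads in each library and was not tested. Of 6 epididymis genes, Lcn8 and Lcn9 had no read, but the summed level was 0.471, 13.7 and 34.4 CPM in wild type and 107, 0.617 and 0.864 CPM in Mov10-/- replicates 2, 3 and 4. The part of such tissue in the values of Mov10-/- replicate 2, which was the lowest library for every member, was not tested.

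**Figure D5:**
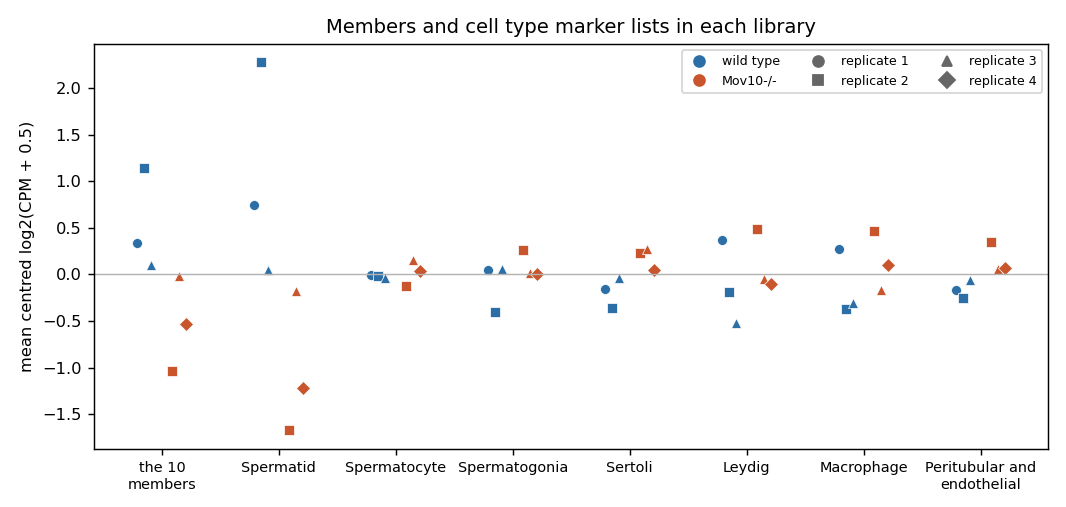
Mean centred log2(CPM + 0.5) of the 10 members and of 7 cell type marker lists, with 1 point per library. The members and the spermatid list spread in the same order of libraries, from -1.04 to 1.14 and from -1.67 to 2.27, while the spermatocyte list stays between -0.13 and 0.15.

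The CLIP-seq libraries held almost no reads on the members. Of their reads 99.48% to 99.57% were not aligned, and only 3404 to 4934 reads were counted on genes in each. The counts therefore say little about binding to any single gene. Replicates 1, 2 and 3 differed by less than the sampling noise (a chi-square per degree of freedom of 0.219 to 0.237 among them, and of 1.63 to 1.93 against replicate 5) and were counted as 1 sample. The 10 members had 0 reads in replicates 1, 2 and 3 and 3 reads in replicate 5, which were 1 read each on Catsperd, Catsperg1 and Slc9c1. At their share of wild type RNA-seq reads on genes, 0.110%, 4.35, 3.77, 3.75 and 5.44 reads would fall on the members at the depth of replicates 1, 2, 3 and 5. In replicates 1, 2 and 3, which count once, a count of 0 allows up to 3 reads by a one-sided limit, which is below those numbers. A two-sided limit, as in the interval for replicate 5, would be higher and was not computed, so no shortfall is read from this. In replicate 5 the exact 95% Poisson interval of the 3 reads, 0.619 to 8.77, holds its number. With these 2 separate samples, whether MOV10-bound RNA holds fewer reads of these genes than total RNA was not tested. C2cd6 had 2, 2 and 2 reads in replicates 1, 2 and 3 and 3 in replicate 5. These limits cover counting error only.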

How the data were processed

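RNA-seq of 6 pairs of P21 testes and 4 CLIP-seq libraries were used. For every library the authors deposited unnormalized read counts by Ensembl gene; their methods name a stranded mRNA kit, STAR on mm10, htseq-count with Ensembl annotation 99 and edgeR. In RNA-seq, 52.8% to 71.7% of reads were in totals that name no gene (not aligned, not unique, outside genes) and stayed out. Names, coordinates and exon lengths came from GENCODE (mm10), which matched 55154 of the 55421 genes. Genes above 1 CPM in at least 3 of the 6 RNA-seq libraries were tested with edgeR 4.0.16 (TMM, quasi-likelihood) in R 4.3.3, with Benjamini-Hochberg adjustment over all 20240 and a call at fold over 2 and adjusted p under 0.05. DESeq2 1.42.0, limma 3.58.1 (voom), edgeR's other tests, other scalings and filters, a replicate block and each library left out were alternatives. Ratios used log2(count + 0.5), with exact permutation tests in scipy 1.17.1. Of the lists, all genes of the other CatSper complex and the 3 with the largest absolute log2 fold change in each of the other 2 were named. The members and lists were chosen with earlier results of these data known. Ratios to other members, the longest transcript as length, levels without single libraries and base composition were added after seeing the data.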

Additional observations from a re-analysis of the deposited data

Results flagged for a closer look

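The 3 CLIP-seq reads on the members all came from replicate 5, while replicates 1, 2 and 3 had 0. Catsperd, Catsperg1 and Slc9c1 had 1 read each there, and replicate 5 therefore stands apart from the 3 others by Dixon's test at the 95% level for the sum of 3 reads and for each of these genes. With 0 reads in replicates 1, 2 and 3, any read in replicate 5 is flagged in this way. The 95% level therefore does not hold for these counts, and replicates 1, 2 and 3 count as 1 sample.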

How the results depend on the processing

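Of 170 fits of single members under 17 alternatives, 156 kept their direction and their side of the threshold, 10 passed it and 4 changed sign. The number of members called went from 0 to 3 with DESeq2 and with the edgeR exact test and to 4 with the edgeR likelihood ratio test, and stayed at 0 with the other scalings and filters, limma voom and every library left out. Among the other 33 genes tested it went from 0 to 9 with DESeq2, 8 with the exact test and 8 with the likelihood ratio test, which called 4.88%, 5.09% and 5.45% of all genes as lower. With a replicate block on the number, the genes of the other lists called were 4, the members called 0 and the members' median log2 fold change -0.69. The numbers 2 and 3 are shared by the genotypes, and the deviations of same-numbered libraries had correlations of -0.442 and -0.335. Those of libraries with unlike numbers ran from -0.196 to 0.426. Such values cannot show whether a number marks a shared litter or day, and the samples were treated as not paired. The median of the members ran from -0.63 to -0.37 with a library left out, the count with an unadjusted p under 0.05 from 5 to 7 and the count without overlap from 5 to 7. With a library left out, the log2 fold change of Catsperg1 ran from -0.3213 to 0.0596 and that of Catsperg2 from -0.2675 to 0.0864, above 0 without Mov10-/- replicate 2 and without wild type replicate 2 (0.0006 and 0.0054). The log2 ratio of Catsper4 to Catsper1 ran from -0.0304, without Mov10-/- replicate 3, to 0.2307. With 1 library left out, the smallest exact p of a ratio is 0.2. Depth limits Catsper3 most among the members, at 17 to 32 reads in Mov10-/-, Lrrc52 (2, 9 and 2) and Tmem262 (7, 13 and 10) more, and the CLIP-seq reads throughout.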
